A study of Astyanax mexicanus with 22 samples.

Results

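The lysosome is the acidic compartment in which cells digest proteins, lipids and sugars taken up from outside or delivered from within. A proton pump, the V-ATPase, acidifies it. The pump's cytosolic V1 sector hydrolyses ATP and its membrane V0 sector carries protons. Cathepsins and other acid hydrolases work in the lumen, and glycoproteins, channels and lipid carriers sit in the membrane. In fish ovaries the same enzymes have a further task, since growing oocytes take up vitellogenin and cathepsins cut it into yolk proteins.

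The 64 genes described here are the lysosomal rows of an ovary RNA count table of Astyanax mexicanus with 27420 genes. They were chosen by symbol (cathepsins, V-ATPase subunits and accessory proteins, LAMP proteins, named acid hydrolases and their activators, NPC proteins, mucolipins and LAPTM proteins) and by having 10 or more counts in at least 2 libraries. Of 86 rows whose symbol matched, 22 stayed under that minimum, 10 of them named ctsl.1. The rows ctsl.1 ENSAMXG00000001891 and ctsz ENSAMXG00000031921 were just inside, each with a highest count of 14, and ctsh was just outside, with 12 counts in its highest library and only 1 library at the minimum. All 64 passed the filter on low counts and were tested. Of these, 4 met the minimum only through surface libraries (ctsl.1 ENSAMXG00000010174, ENSAMXG00000010192 and ENSAMXG00000029871 and atp6ap2 ENSAMXG00000038234) and 2 only through Pachón libraries (ctsl.1 ENSAMXG00000001891 and ctsz ENSAMXG00000031921), so the rule itself favours a difference between the morphs in these 6 rows. The 64 rows hold 55 symbols: 15 rows are cysteine cathepsins, 2 are other cathepsins, 11 are V1 subunits, 8 are V0 subunits, 5 are pump accessory proteins, 12 are hydrolases or activators and 11 are membrane or lipid transport proteins. The name match also took in GBA2 and gba3, which are beta-glucosidases outside the lysosome.

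The fish were cave-adapted Pachón cavefish and eyed surface fish, all labelled WT and each either starved or not treated. The libraries came from right-side ovaries and were labelled as an old and a new batch. Starved Pachón fish gave 4 old and 2 new libraries, Pachón controls 4 and 2, starved surface fish 2 and 2, and surface controls 4 and 2, which makes 22 libraries. The design text gives ages of about 500 and 1200 days without saying which batch had which age, so batch and age cannot be told apart, and the length of starvation is not given. Nothing says that the libraries of a group came from separate fish, so the p-values measure the spread between these libraries, which may be technical.

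Gene counts per library ranged from 4860620 to 7513790, and the 64 rows took 0.609 to 0.67% of them in Pachón and 0.6 to 0.687% in surface fish. Unmapped reads made up 6.96 to 11% of the reads listed in Pachón and 7.11 to 9.57% in surface fish, and reads mapped to several places 8.32 to 17.6% and 7.91 to 14.7%. Surface new starved replicate 2 stood apart. It had the lowest scaling factor of the 22 libraries, 0.833, and it was the highest or the lowest of the 10 surface libraries for 34 of the 64 rows, against 5 to 13 rows for each of the other surface libraries. The labelled tissue was checked by 16 oocyte marker rows, whose summed level was 4518 to 6811 CPM in Pachón and 4273 to 8983 CPM in surface fish, where CPM are a row's counts per 1e+06 counts of its library, scaled by the trimmed mean of M-values. These are whole ovaries, in which fewer cells of a type and less RNA per cell cannot be told apart.

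CPM are not corrected for gene length, so the levels below give no order of transcripts between genes. The row ctsc, which encodes a dipeptidyl peptidase, had 824 ± 76.8 CPM in Pachón (SD, n = 12) and 807 ± 77.8 CPM in surface fish (SD, n = 10). The cathepsin B row ctsba had 533 ± 60.9 CPM in Pachón and 520 ± 67.3 CPM in surface fish. The row psap, whose product is cut into the saposins that help lipid hydrolases, had 459.8 ± 47.6 CPM in Pachón and 473 ± 34.3 CPM in surface fish. The cholesterol exporter npc1 had 192 ± 20.5 CPM in Pachón and 205 ± 13.1 CPM in surface fish. The catalytic pump subunit ATP6V1A had 127 ± 11.1 CPM in Pachón and 127 ± 10.2 CPM in surface fish. None of these 5 rows passed the test in a comparison of morphs, of starved with control fish or of batches. Summed by role, the cysteine cathepsins gave 2119 to 2999 CPM per library in Pachón and 2220 to 2919 CPM in surface fish, ranges that overlap almost wholly. The V1 subunits gave 431 to 520.1 CPM in Pachón and 504 to 673 CPM in surface fish, with an overlap of the ranges at their edge. The membrane and lipid transport rows gave 1249 to 1525 CPM in starved Pachón and 1532 to 1697 CPM in starved surface fish. Controls gave 1175 to 1365 CPM in Pachón and 1421 to 1594 CPM in surface fish, so this sum was lower in Pachón in both conditions. It follows its abundant rows: lamp2 alone had 401 to 694 CPM in Pachón and 532 to 800 CPM in surface fish, which overlapped. Of the 11 rows, 3 were lower and 1 was higher in starved Pachón (17.7% and 18.3% of all genes tested). In Pachón controls 5 were lower (18% of all genes) and none was higher.

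**Figure D1:**
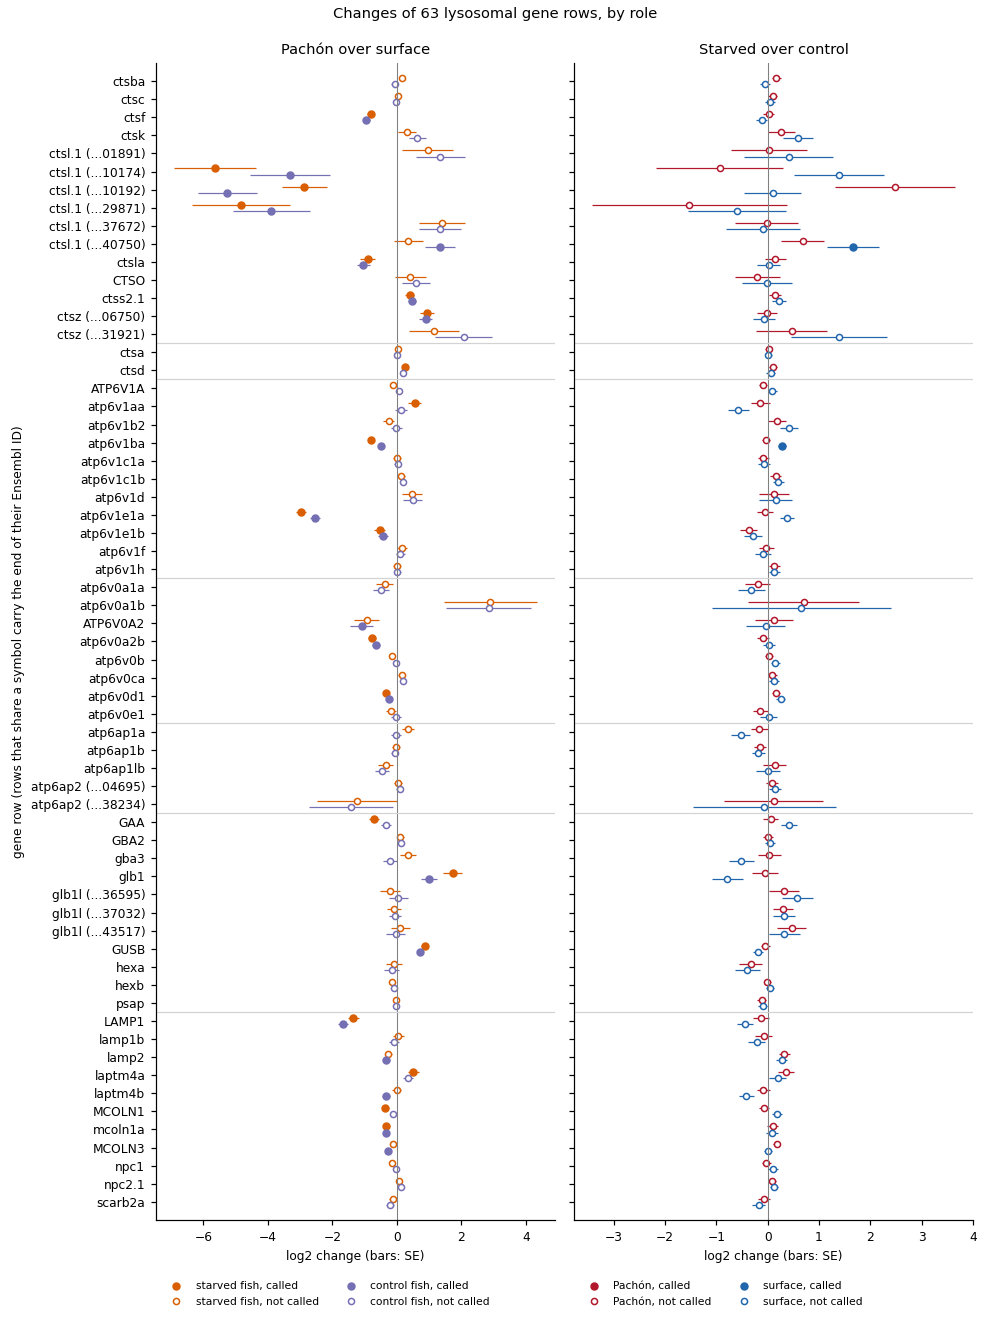
Log2 changes of 63 of the 64 lysosomal rows: Pachón over surface (left panel, starved fish in orange and control fish in purple) and starved over control (right panel, Pachón in red and surface fish in blue), with standard errors as bars and filled points for calls at an adjusted p under 0.05. Filled points are frequent on the left, 21 in each condition, and there are 2 on the right, both in surface fish.

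The first comparison set Pachón against surface fish. In control fish, 22 of the 64 rows passed the test, 6 higher and 16 lower in Pachón. That is 9.38% and 25% of the rows, where 16.6% of the 15607 genes tested were higher and 18% were lower. In starved fish, other libraries, again 22 passed, 8 higher and 14 lower, or 12.5% and 21.9% of the rows against 18.3% and 17.7% of all genes. The lower calls include 3 ctsl.1 rows in each condition that entered only through surface libraries. Of the 58 rows that entered through both morphs, 6 were higher and 13 lower in Pachón controls (10.3% and 22.4%), and 8 were higher and 11 lower in starved Pachón (13.8% and 19%). These shares were not tested against those of all genes, and nothing is read from them. The median change was -0.04 in control and -0.02 in starved fish, and -0.01 and 0.00 over all genes. Calls are from edgeR's quasi-likelihood test with p-values adjusted by Benjamini and Hochberg's method over all genes tested, at 0.05.

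Of the 10 cysteine cathepsin rows that entered through both morphs, 2 were higher and 2 lower in starved Pachón (20% each). Over all genes tested the shares there were 18.3% and 17.7%. In Pachón controls 3 were higher and 2 lower (30% and 20%), against 16.6% and 18% of all genes. Cathepsin F, ctsf (ENSAMXG00000010535), had 66.8, 70.8 and 77.6 CPM (lowest, median and highest of 6) in starved Pachón, against 112, 153, 127 and 117 CPM in the 4 starved surface libraries. It had 66.7, 71.5 and 76.9 CPM in Pachón controls and 111, 127 and 184 CPM in surface controls. Every Pachón library lay below every surface library, and the edgeR log2 difference was -0.81 ± 0.11 (SE) in starved fish (adjusted p = 2.36e-05) and -0.94 ± 0.11 in control fish (adjusted p = 1.91e-06).

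The cathepsin L row ctsla (ENSAMXG00000042927) is of interest because a cathepsin L takes part in yolk processing in fish eggs. It had 135, 255.5 and 295 CPM in starved Pachón, against 441, 456, 352 and 485 CPM in starved surface fish, and 145, 209 and 269.7 CPM in Pachón controls against 376, 411 and 498 CPM in surface controls. The groups did not overlap. The log2 difference was -0.90 ± 0.23 in starved fish (edgeR adjusted p = 0.00466) and -1.04 ± 0.21 in control fish (adjusted p = 0.0011). The Pachón libraries did not spread evenly: 5 lay at 135 to 169 CPM and 7 at 248 to 295 CPM, and the low 5 came from both batches and both treatments (old starved replicate 3, new starved replicate 2, old control replicates 1 and 4, new control replicate 2).

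The cathepsin S row ctss2.1 (ENSAMXG00000030026) went the other way, with 699.5, 898 and 1056 CPM in starved Pachón against 719.7, 726, 507 and 837 CPM in starved surface fish. Controls had 698, 836 and 974 CPM in Pachón and 548.5, 627 and 714 CPM in surface fish. Both pairs of groups overlapped, with log2 differences of 0.40 ± 0.14 (edgeR adjusted p = 0.0277) and 0.47 ± 0.13 (adjusted p = 0.00673). The control call was lost without Pachón new control replicate 1 (adjusted p = 0.0603). The starved call was lost without any of 5 libraries (both old and the first new starved surface library and both new starved Pachón libraries), with adjusted p from 0.0536 to 0.137. It was also lost with a replicate block (edgeR adjusted p = 0.072) and in the fit to only the groups compared (0.097). The carboxypeptidase row ctsz ENSAMXG00000006750 was also higher in Pachón, by 0.95 ± 0.22 in starved fish (adjusted p = 0.00233) and 0.90 ± 0.20 in control fish (adjusted p = 0.00181), and its libraries ranged over 15.3 to 41.5 CPM in Pachón and 13.2 to 24.6 CPM in surface fish. Its difference was 0.59 (old batch) and 1.30 (new batch) in starved fish and 0.49 and 1.31 in control fish, and the old batch alone did not pass the test. The aspartic protease ctsd was higher in starved Pachón, at 0.24 ± 0.08 (adjusted p = 0.0282), and had a difference of 0.19 in control fish (adjusted p = 0.059). By batch the starved difference was 0.06 (old, adjusted p = 0.727) and 0.42 (new, adjusted p = 0.0245), and the control difference 0.25 (old, adjusted p = 0.0386) and 0.13 (new, adjusted p = 0.514). The starved call of ctsd was lost without any of 5 starved libraries (the same 5 as for ctss2.1), with adjusted p from 0.0608 to 0.0772. It was also lost with a replicate block (edgeR adjusted p = 0.0634) and in the fit to only the groups compared (0.0692).

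Several ctsl.1 rows had few counts and very unequal ones between the morphs. The 3 given first became members only through surface libraries with 10 or more counts, so their direction was favoured by the choice of rows and their values are a description only. Intervals of the ratio are exact 95% intervals and cover counting error only. The row ENSAMXG00000010174 had 3 counts in all 12 Pachón libraries, 9 of them at 0, and 86 counts in the 10 surface libraries, 1 of them at 0. The ratio scaled by library size was 0.0286 (0.00578 to 0.0864). The row ENSAMXG00000029871 had 8 counts in Pachón and 123 in surface fish, and ENSAMXG00000010192 had 9 and 82. After scaling, surface fish had 18.8 times (9.23 to 44.4) and 11.1 times (5.58 to 25.2) the Pachón level. Within surface fish ENSAMXG00000029871 ranged over 0 to 6.13 CPM. The row ctsl.1 ENSAMXG00000001891, which entered only through Pachón libraries, had 64 counts in Pachón and 23 in surface fish, a ratio of 2.28 (1.4 to 3.85). These rows share a symbol and may be near copies. Reads that mapped to several places were listed apart from the genes, so near copies may lack such reads. How many reads these rows lack was not checked.

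**Figure D2:**
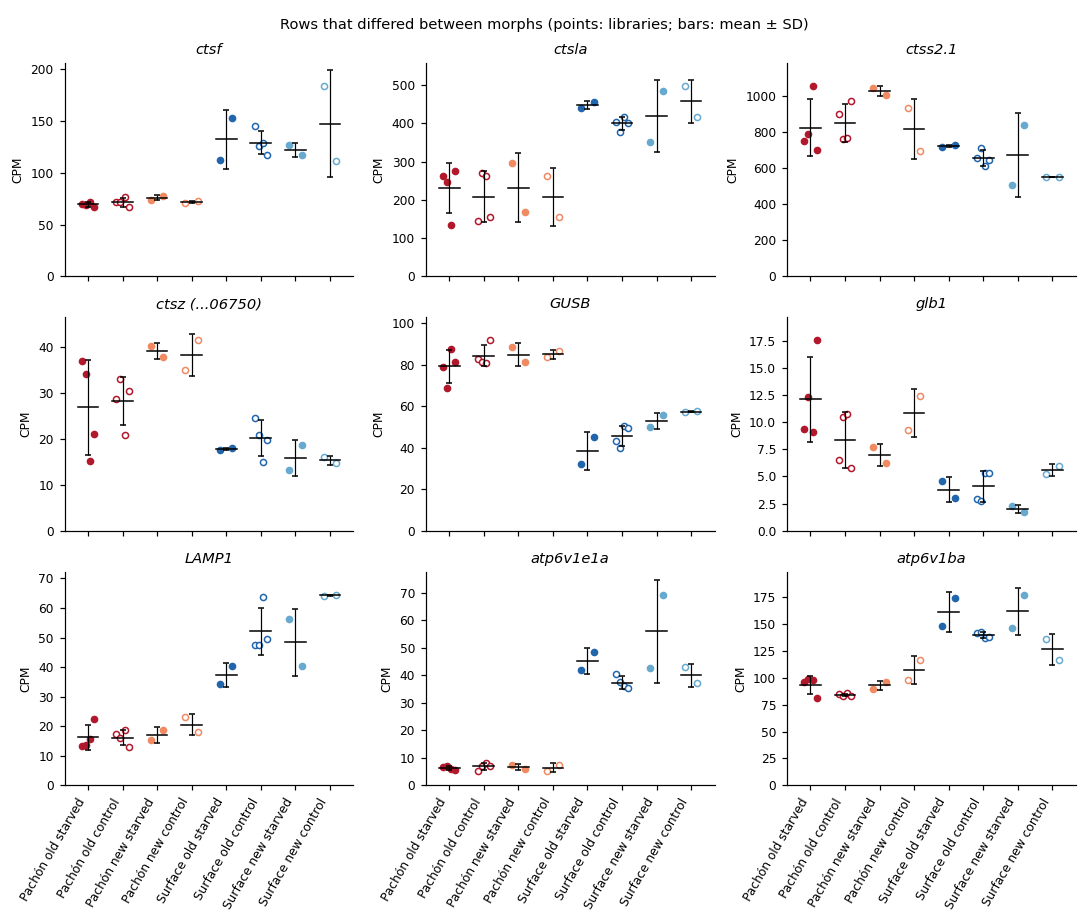
Levels in CPM of 9 rows that were called between the morphs (ctsf, ctsla, ctss2.1, ctsz ENSAMXG00000006750, GUSB, glb1, LAMP1, atp6v1e1a and atp6v1ba) in the 8 groups, with a point for each library and the mean ± SD of each group. Pachón groups stand to the left of the surface groups: atp6v1e1a lies at 5.31 to 8.03 CPM in Pachón and 35.3 to 69.3 CPM in surface fish.

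A pump subunit had the smallest p-value of the module in both conditions. The row atp6v1e1a (ENSAMXG00000013119) encodes an E subunit, part of the stalk that joins the sectors. It had 6.50, 7.01, 6.07 and 5.49 CPM in the old and 7.38 and 5.80 CPM in the new starved Pachón libraries, against 41.9 and 48.5 CPM in the old and 42.7 and 69.3 CPM in the new starved surface libraries. Controls had 5.31, 7.02 and 8.03 CPM (lowest, median, highest of 6) in Pachón and 35.3, 37.3 and 43.0 CPM in surface fish. The highest Pachón library was far below the lowest surface library. The log2 difference was -2.96 ± 0.16 in starved fish (edgeR adjusted p = 2.14e-10) and -2.54 ± 0.15 in control fish (adjusted p = 8.04e-10). The scaled counts in surface fish were thus 7.79 and 5.80 times those in Pachón. Within batches the log2 difference was -2.85 (old) and -3.08 (new) in starved fish and -2.44 and -2.63 in control fish.

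A second E subunit row, atp6v1e1b (ENSAMXG00000034176), was lower in Pachón too, by a smaller step: -0.52 ± 0.17 in starved fish (edgeR adjusted p = 0.0223) and -0.44 ± 0.16 in control fish (adjusted p = 0.0379). The call was lost without any of 3 libraries in starved fish (adjusted p = 0.0682 to 0.118 without surface old starved 2, surface new starved 1 or Pachón new starved 2) and without any of 8 control libraries (adjusted p = 0.0512 to 0.268). With a replicate block it was lost in both conditions (edgeR adjusted p = 0.0616 in starved and 0.0749 in control fish). So neither E row was higher in Pachón. The reads of both E rows together came to 23.0 to 49.1 CPM in Pachón and 67.2 to 98.7 CPM in surface fish. Of that sum atp6v1e1a took 14.7 to 25.2% in Pachón (median 19.2%) and 42.2 to 70.2% in surface fish (median 51.4%).

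The B subunit row atp6v1ba (ENSAMXG00000011653), part of the nucleotide-binding head, had 81.2, 95.8 and 99.0 CPM in starved Pachón, against 148, 174, 147 and 177 CPM in starved surface fish. Controls had 82.7, 85.1 and 117 CPM in Pachón and 116, 138 and 143 CPM in surface fish. Only the control groups overlapped, and only just, with Pachón new control replicate 2 at 116.5 CPM and surface new control replicate 2 at 116.4 CPM. The log2 difference was -0.79 ± 0.08 in starved fish (edgeR adjusted p = 6.21e-07) and -0.49 ± 0.08 in control fish (adjusted p = 6.84e-05). Among controls it was -0.74 in the old batch, against -0.24 in the new one, which did not pass the test (adjusted p = 0.211).

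In the V0 sector, atp6v0a2b (ENSAMXG00000039951), an a subunit of the membrane part, ranged over 42.2 to 62.1 CPM in Pachón and 60.3 to 108 CPM in surface fish. It was lower in Pachón, by a log2 difference of -0.76 ± 0.12 in starved fish (edgeR adjusted p = 7.2e-05) and -0.64 ± 0.11 in control fish (adjusted p = 2e-04). Within the new batch no V0 row passed in starved fish (smallest edgeR adjusted p = 0.0771), and 1 passed in controls. The d subunit atp6v0d1 was lower by 0.33 and 0.24 on the log2 scale (adjusted p = 0.00571 and 0.0253), and the control call was lost without any of the 4 new-batch control libraries (adjusted p = 0.0609 to 0.0962). That control call was also lost without a filter on low counts (edgeR adjusted p = 0.0566). Of the 11 V1 rows, 3 were lower in starved Pachón and 3 in Pachón controls (27.3% each), and of the 8 V0 rows 2 and 3 (25% and 37.5%), where 17.7% and 18% of all genes were lower. With so few rows these counts are a description. The A subunit row atp6v1aa was higher in starved Pachón, at 0.55 ± 0.20 (adjusted p = 0.039), a call lost without any of 8 libraries (both old and the second new starved surface library, Pachón old starved replicates 1 to 3 and both Pachón new starved libraries), with adjusted p from 0.0563 to 0.129. This call was also lost with a replicate block (edgeR adjusted p = 0.0887). None of the 5 accessory rows passed in either condition. The a1 subunit row atp6v0a1b was unlike the rest: it had 0 to 0.58 CPM in 4 Pachón libraries and 12.2 to 38.2 CPM in the other 8, while in surface fish old starved replicate 1 had 16.99 CPM, old control replicate 2 had 7.77 CPM and the other libraries at most 1.35 CPM. It did not pass the test in control fish (2.85 ± 1.32, edgeR adjusted p = 0.108).

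**Figure D3:**
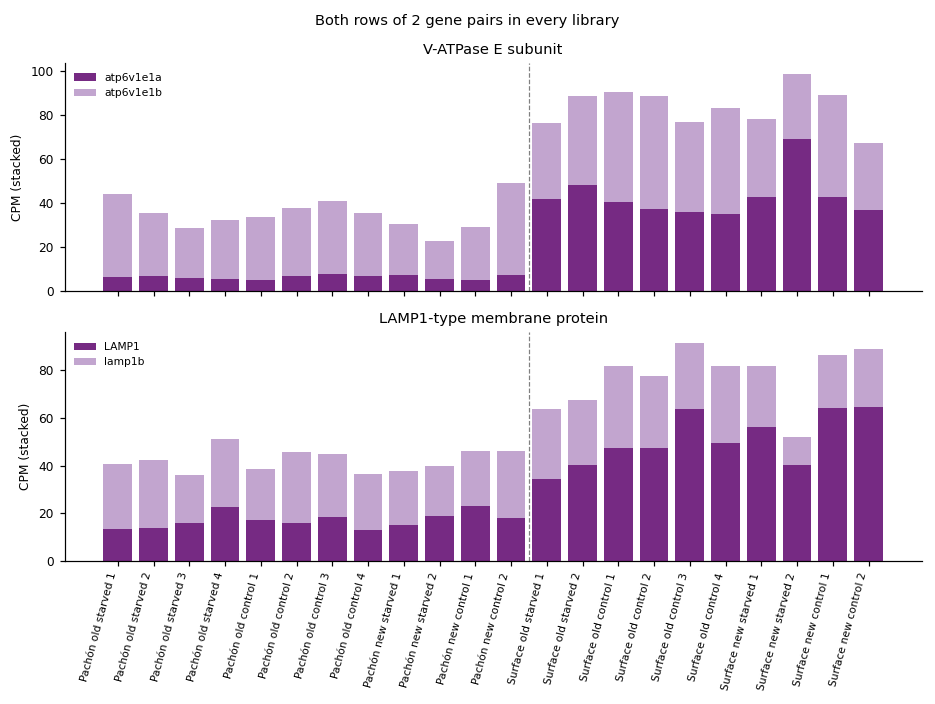
Stacked levels in CPM of atp6v1e1a with atp6v1e1b and of LAMP1 with lamp1b in each library, Pachón on the left and surface fish on the right. The E subunit rows sum to 23.0 to 49.1 CPM in Pachón and 67.2 to 98.7 CPM in surface fish, and the share of atp6v1e1a in the sum is at most 25.2% in Pachón and at least 42.2% in surface fish.

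Of 12 hydrolase and activator rows, 3 were higher (25%) and 1 was lower (8.33%) in starved Pachón, where 18.3% and 17.7% of all genes were, and 3 were higher and none lower in Pachón controls, where 16.6% and 18% were. In the new batch alone, hexb was lower in Pachón by 0.42 on the log2 scale in starved fish (edgeR adjusted p = 0.0165) and by 0.35 in control fish (adjusted p = 0.0425). The old batch went the other way. There hexb had 102.2 to 116.5 CPM in starved Pachón, against 100.2 and 98.0 CPM in starved surface fish. Old controls had 101.2 to 118.5 CPM in Pachón and 95.8 to 107.1 CPM in surface fish, which overlapped. Over both batches hexb was not called between the morphs in either condition. Beta-glucuronidase, GUSB (ENSAMXG00000042392), had 68.9, 81.4 and 88.8 CPM in starved Pachón, against 32.1, 44.99, 50.1 and 55.8 CPM in starved surface fish, and 81.0, 83.2 and 91.8 CPM in Pachón controls against 40.1, 49.9 and 57.8 CPM in surface controls. It was the only one of the 64 rows with every Pachón library above every surface library, which holds for 4.13% of all genes tested. The reverse held for ctsf, atp6v1e1a, LAMP1 and ctsla, or 6.25% of the rows, against 4.36% of all genes. In log2 units GUSB was higher by 0.86 ± 0.10 in starved fish (edgeR adjusted p = 3.43e-06) and 0.72 ± 0.09 in control fish (adjusted p = 8.18e-06).

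Beta-galactosidase, glb1 (ENSAMXG00000007197), was a low row, with 6.28, 9.26 and 17.5 CPM in starved Pachón against 4.61, 3.00, 2.25 and 1.72 CPM in starved surface fish. Controls had 5.77, 9.90 and 12.4 CPM in Pachón and 2.74, 5.26 and 5.99 CPM in surface fish. The starved groups did not overlap and the control groups overlapped slightly. On the log2 scale glb1 was higher by 1.73 ± 0.30 in starved fish (edgeR adjusted p = 0.000219) and 0.99 ± 0.26 in control fish (adjusted p = 0.00607).

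Acid alpha-glucosidase, GAA (ENSAMXG00000031791), which degrades glycogen in lysosomes, was lower in starved Pachón, at -0.70 ± 0.15 (adjusted p = 0.00158). It had 20.7, 31.1 and 32.7 CPM there, against 55.4, 47.7, 32.0 and 60.3 CPM in starved surface fish. Surface new starved replicate 1 lay within the Pachón range and the other 3 above it. Within the new batch the starved difference did not pass the test. The libraries there had 32.7 and 32.5 CPM in Pachón and 32.0 and 60.3 CPM in surface fish, the last being surface new starved replicate 2. In the old control batch GAA was lower by 0.76 on the log2 scale, which passed the test, and in the new control batch the difference was 0.07.

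Among the membrane proteins the glycoprotein LAMP1 (ENSAMXG00000034169) differed most. It had 13.4, 15.4 and 22.5 CPM in starved Pachón, against 34.4, 40.3, 56.3 and 40.4 CPM in starved surface fish, and 12.9, 17.6 and 23.1 CPM in Pachón controls against 47.4, 56.6 and 64.5 CPM in surface controls. No libraries overlapped. The log2 difference was -1.35 ± 0.16 in starved fish (edgeR adjusted p = 4.17e-06) and -1.66 ± 0.15 in control fish (adjusted p = 1.64e-07), and within batches it ran between -1.19 and -1.68. The paired row lamp1b had levels that overlapped between the morphs, and LAMP1 made up 32.4 to 50.2% of the reads of both rows in Pachón and 54 to 77.4% in surface fish. The row lamp2 was lower by 0.33 ± 0.10 in Pachón controls (adjusted p = 0.0175), a call lost without surface new control replicate 1 (0.113) or Pachón new control replicate 2 (0.145), and was not called in starved fish. The calcium channel row MCOLN3 was lower by 0.28 in Pachón controls (adjusted p = 0.00392). The lysosomal transmembrane row laptm4a was higher in starved Pachón, at 0.51 ± 0.17 (adjusted p = 0.0223), lost without surface old starved 1, surface new starved 1 or Pachón new starved 1 (adjusted p = 0.0564 to 0.0868). That difference was 0.95 in the old batch (adjusted p = 0.0045) and 0.07 in the new batch (adjusted p = 0.875).

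**Figure D4:**
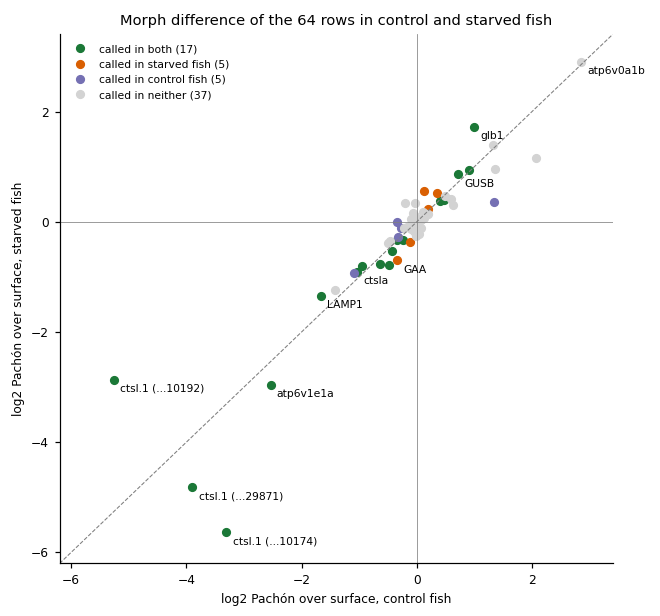
Log2 differences of Pachón over surface in control fish (x axis) and starved fish (y axis) for the 64 rows. Colours mark the 17 rows called in both conditions, the 5 called in starved fish only, the 5 called in control fish only and the 37 called in neither. Rows called in both lie on the same side of 0 on both axes.

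The control and starved comparisons used different libraries and shared only the estimate of spread. They called 17 rows in common, 77.3% of each list of 22, and 56 of the 64 rows had the same sign. The same shares were not computed over all genes tested, so they are not read as particular to these rows. Of the 17, 5 were higher in Pachón, among them GUSB, glb1, ctsz ENSAMXG00000006750 and ctss2.1, and 12 were lower, 3 of them the ctsl.1 rows that entered only through surface libraries. No row was called in opposite directions. All 44 calls had the same sign in each batch, but each call averages both batches, so this is not separate support. Within a batch fewer rows passed: 17 (old) and 11 (new) in starved fish, and 21 and 10 in control fish. Of the 15607 genes tested, 4426 (old) and 2610 (new) passed in starved fish, and 4742 and 2330 in control fish. Of the 44 calls, 22 were tested and held in each of the 27 other settings, which include leaving out each library in turn. Those were atp6v1e1a, LAMP1, ctsf, GUSB, atp6v1ba, atp6v0a2b, ctsla, glb1 and ctsz ENSAMXG00000006750 in both conditions, MCOLN3 in control fish, and GAA, atp6v0d1 and ctsl.1 ENSAMXG00000010192, which entered only through surface libraries, in starved fish. In control fish ctsl.1 ENSAMXG00000010192 held in 26 settings and could not be tested in the fit to only the groups compared. Marker genes of other ovarian cells differed between the morphs in the starved comparison, where 7 of 11 stroma rows, 5 of 6 smooth muscle rows and 5 of 8 granulosa and theca rows were higher in Pachón. Also higher were 4 of 17 macrophage, 2 of 16 oocyte, 1 of 5 endothelial and 1 of 5 hepatocyte rows. Lower were 3 oocyte rows and 1 row each of the macrophage, hepatocyte, and granulosa and theca lists. Over all genes tested, 18.3% were higher and 17.7% lower in starved fish, and 16.6% and 18% in control fish. The stroma rows summed to 44.5 to 204 CPM in starved Pachón and 10.8 to 31.9 CPM in starved surface fish. Among controls none of the stroma rows was called, while 4 oocyte rows of 16 were higher and 3 lower, 1 macrophage row of 17 was higher and 2 were lower, 1 of 6 smooth muscle rows was higher, 1 of 5 hepatocyte rows was higher and 2 were lower, and 1 of 8 granulosa and theca rows and 1 of 5 endothelial rows were lower in Pachón. The stroma sums in the controls were 71.7 to 154 CPM in Pachón and 21.8 to 254 CPM in surface fish. The macrophage rows, of which several were at 0 in most libraries, summed to 49.4 to 108 CPM in starved Pachón and 26.2 to 83.04 CPM in starved surface fish, and 51.9 to 86.4 and 27.6 to 139 CPM in the controls. Their part in the lysosomal differences was not tested.

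The second comparison set starved against control fish within each morph. In surface fish, where 2.42% of all genes tested were higher and 5.37% lower after starvation, 2 of the 64 rows (3.12%) were higher and none was lower. Unadjusted, 13 of the 64 rows had p under 0.05, as had 3975 of the 15607 genes tested, so nothing is read from the 13. The pump row atp6v1ba had 148 and 174 CPM in the old and 147 and 177 CPM in the new starved libraries, against 142, 143, 137 and 138 CPM in the old and 137 and 116 CPM in the new controls. All starved libraries were above all controls, by a small step: the log2 change was 0.28 ± 0.08 (edgeR adjusted p = 0.0399), a 1.21-fold level. In Pachón the same row had 81.2, 95.8 and 99.0 CPM in starved fish and 82.7, 85.1 and 117 CPM in controls, which overlapped, and the change in Pachón minus that in surface fish was -0.31 ± 0.11, which did not pass the test (adjusted p = 0.363).

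The other call in surface fish was the sparse row ctsl.1 ENSAMXG00000040750, with 0.58 and 0.95 CPM in the old and 2.25 and 5.37 CPM in the new starved libraries, against 0.17, 0.15, 0.19 and 0.34 CPM in the old and 1.02 and 1.46 CPM in the new controls. Starved libraries were above controls within each batch, but old starved and new control libraries overlapped. The sums were 49 and 20 counts, a scaled ratio of 3.6 (2.1 to 6.4, exact 95% interval), and the log2 change was 1.66 ± 0.50 (edgeR adjusted p = 0.049). Neither call is firm. Within a single batch no row passed. The atp6v1ba call was lost without any of 11 single libraries, with adjusted p from 0.0504 to 0.19: surface old control replicates 1, 3 and 4, surface new control 2, surface old starved 2, surface new starved 2, Pachón old control 1, 2 and 4, and both Pachón new starved libraries. The ctsl.1 call held without surface old control 4, Pachón old control 4, Pachón old starved 3 or 4 or surface new starved 1 and was lost without any other single library, with adjusted p from 0.0505 to 0.215. Without surface new starved replicate 1 the count of rows called became 18, 10 higher and 8 lower, or 28.1% of the rows, when 26.6% of all genes were called, and without surface new starved replicate 2 it became 0.

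**Figure D5:**
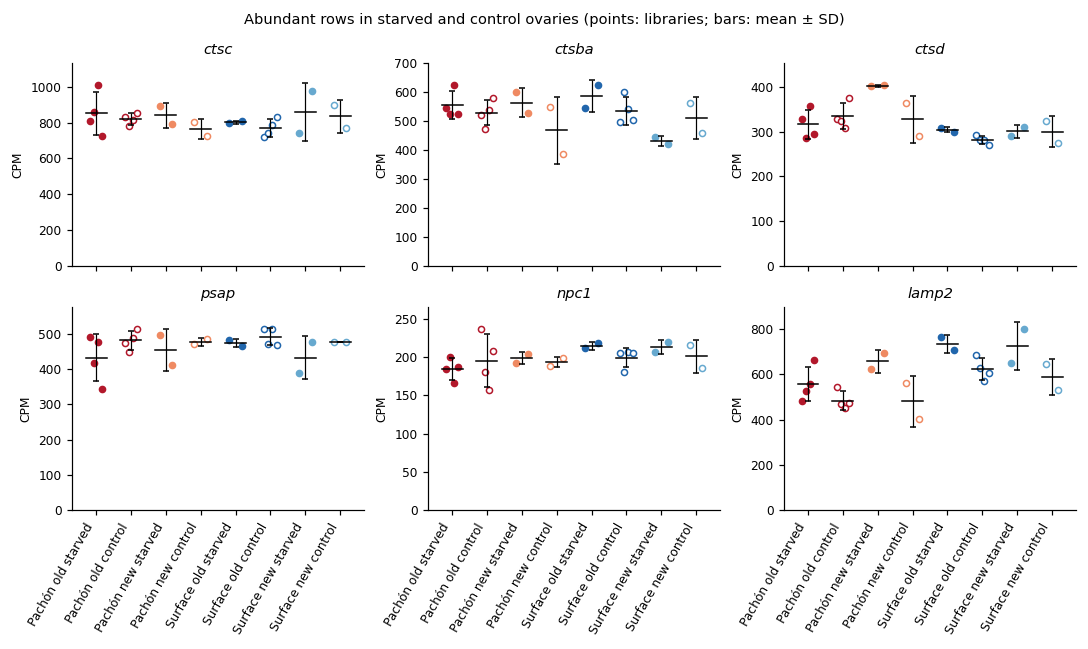
Levels in CPM of the 6 abundant rows ctsc, ctsba, ctsd, psap, npc1 and lamp2 in the 8 groups, with a point for each library and the mean ± SD. Starved libraries stand left of their controls, and none of the 6 rows was called between them in either morph.

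The abundant digestive genes did not pass the test in starved surface fish, among them ctsc, ctsba, ctsd, ctsla, psap and npc1. The 95% interval of the log2 change was -0.15 to 0.25 for ctsc, -0.27 to 0.16 for ctsba, -0.29 to 0.10 for psap and -0.10 to 0.29 for npc1. In Pachón it was -0.09 to 0.28 for ctsc, -0.03 to 0.37 for ctsba, -0.29 to 0.07 for psap and -0.21 to 0.16 for npc1. The membrane glycoprotein lamp2 had 730.3 ± 65.1 CPM in starved surface fish (SD, n = 4) and 611 ± 55.1 CPM in surface controls (SD, n = 6), and 590.4 ± 82.2 CPM in starved Pachón and 483 ± 59.9 CPM in Pachón controls (SD, n = 6 each), and neither change passed. Next below the threshold in surface fish came laptm4b (-0.42 ± 0.14, edgeR adjusted p = 0.0731), atp6v0d1 (0.25 ± 0.09, 0.0756) and the accessory row atp6ap1a (-0.52 ± 0.18, 0.0837). In Pachón none of the 64 rows passed, and 5 had an unadjusted p under 0.05. No gene of the 15607 passed there (0%), and 1142 had an unadjusted p under 0.05, while DESeq2 called 11 genes and 0 of the rows. The smallest adjusted p-values belonged to lamp2 (0.33 ± 0.10, edgeR adjusted p = 0.592), MCOLN3 (0.17 ± 0.07, 0.635) and laptm4a (0.36 ± 0.15, 0.661). The test of the response in Pachón minus that in surface fish called none of the 64 rows, where 0.0256% of all genes were higher and 0% lower. An unadjusted p under 0.05 was found for 1 row and for 1446 of the 15607 genes. DESeq2 also called 0 of the rows. So no lysosomal row was shown to respond differently in the morphs. Markers of other cells moved with starvation in surface fish, where 2.42% of all genes tested were higher and 5.37% lower. Lower were 9 of 11 stroma rows, 6 of 8 granulosa and theca rows, 4 of 6 smooth muscle rows and 1 of 5 endothelial rows. Another smooth muscle row was higher. Of the 16 oocyte rows 2 were higher and none lower, with a median log2 change of 0.27. The stroma rows summed to 10.8 to 31.9 CPM in starved surface fish and 21.8 to 254 CPM in surface controls, and granulosa and theca rows to 6.19 to 15.9 CPM and 10.5 to 49.6 CPM. Macrophage rows were lower in 4 of 17 cases and summed to 26.2 to 83.04 CPM and 27.6 to 139 CPM. In Pachón no marker row was called. The part of these cells in the changes of atp6v1ba and ctsl.1 was not tested.

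The third comparison set the old against the new batch among controls. In surface fish 3 rows passed, 1 higher and 2 lower in the old batch, or 1.56% and 3.12% of the rows against 3% and 4.36% of all genes. The beta-hexosaminidase row hexb (ENSAMXG00000036341) had 95.8 to 107 CPM in the 4 old controls, against 138 and 141 CPM in the 2 new ones, a log2 difference of -0.49 ± 0.10 (edgeR adjusted p = 0.00494), while Pachón had 111 ± 6.27 CPM (old batch, SD, n = 8) and 109.8 ± 3.397 CPM (new batch, SD, n = 4) over both treatments. GAA had 44.6 to 57.0 CPM in old and 24.5 and 30.0 CPM in new surface controls, a difference of 0.84 ± 0.21 (adjusted p = 0.0196). The row ctsl.1 ENSAMXG00000040750 was lower in the old batch by 2.42 on the log2 scale (adjusted p = 0.0443). Without surface new control replicate 1 none of the 3 passed (hexb 0.0562, GAA 0.216, ctsl.1 0.116), GAA was also lost without surface new control replicate 2 (0.0661), and ctsl.1 was lost without any of 10 libraries (adjusted p from 0.0504 to 0.242). Surface controls serve this comparison, the surface starvation comparison and the control morph comparison alike, and this ctsl.1 row was called in all of them. Some markers again differed. Lower in the old batch were 8 of 11 stroma, 3 of 6 smooth muscle and 4 of 17 macrophage rows. So were 1 of 8 granulosa and theca rows and 1 of 5 endothelial rows. Of 16 oocyte rows 1 was higher and 1 lower, and no hepatocyte or erythrocyte row was called. Stroma rows summed to 21.8 to 71.7 CPM in old and 186 to 254 CPM in new surface controls. Macrophage rows summed to 27.6 to 60.3 and 107 to 139 CPM. The part of these cells was not tested. In Pachón controls none of the 64 rows passed, where 0.0256% of all genes were higher and 0.00641% lower in the old batch. An unadjusted p under 0.05 was found for 2 rows and for 560 of the 15607 genes tested. The batch difference in Pachón minus that in surface fish was not called for any row (hexb 0.52 ± 0.14, edgeR adjusted p = 0.0778).

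Other genes of the lysosomal pathway were read from 6 lists. Of 30 other acid hydrolases and their modifiers, 1 was higher and 2 lower in starved surface fish (3.33% and 6.67%, against 2.42% and 5.37% of all genes). NAGLU, which removes N-acetylglucosamine from heparan sulfate, had 3.17 to 11.4 CPM in starved surface fish and 14.3 to 22.5 CPM in controls, a log2 change of -1.73 ± 0.27 (edgeR adjusted p = 0.00202). HGSNAT, which acts in the same degradation, fell by 0.70 on the log2 scale (adjusted p = 0.00235), with 24.0 to 39.8 CPM in starved fish and 50.4 to 59.5 CPM in controls, and the sulfatase activator sumf1 was higher by 0.34 ± 0.08 (adjusted p = 0.014). NAGLU in Pachón had 14.5 to 37.4 CPM in starved fish and 20.6 to 30.3 CPM in controls, and the difference between the morphs in its response was not called. By batch NAGLU changed by -2.12 (old, adjusted p = 0.03) and -1.34 (new, adjusted p = 0.0566), HGSNAT by -0.57 (old, adjusted p = 0.0999) and -0.82 (new, adjusted p = 0.0128), and sumf1 by 0.11 (old, adjusted p = 0.664) and 0.57 (new, adjusted p = 0.014). Between the morphs 6 of these 30 were higher and 5 lower in Pachón controls (20% and 16.7%, against 16.6% and 18% of all genes). The smallest p belonged to the cysteine protease lgmn, at 0.95 ± 0.11 over both batches (adjusted p = 3.76e-06), but by batch it was 1.93 ± 0.14 in the old batch (adjusted p = 8.97e-09) and -0.04 ± 0.18 in the new batch (adjusted p = 0.909). Surface controls had 26.5 to 36.8 CPM of lgmn in the old batch and 104.5 and 124.9 CPM in the new one. Next came IDUA, alpha-L-iduronidase (-1.46 ± 0.19, adjusted p = 1.07e-05), lower in both batches (-1.06 and -1.86). Over both treatments IDUA had 3.59 to 8.01 CPM in Pachón and 12.3 to 20.5 CPM in surface fish.

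Of 24 lysosomal membrane transporters and positioning genes, none was higher and 3 were lower in starved surface fish (12.5%: tpcn2, CLCN6 and slc38a9, the smallest adjusted p being 0.00906), and 2 were higher and 7 lower in Pachón controls (8.33% and 29.2%). Over all genes tested, 2.42% were higher and 5.37% lower in starved surface fish, and 16.6% and 18% in Pachón controls. These shares also stand beside the counts of the lists below. By batch the starvation change was -0.25 (old, adjusted p = 0.555) and -0.97 (new, adjusted p = 0.0108) for tpcn2 and -0.05 (old, adjusted p = 0.907) and -0.89 (new, adjusted p = 0.00528) for CLCN6, a chloride/proton exchanger. The morph difference of CLCN6 was -1.01 over both batches (edgeR adjusted p = 3.71e-07), -0.33 in the old batch (adjusted p = 0.0341) and -1.68 in the new batch (adjusted p = 1.58e-06). Its surface controls differed by -1.32 between old and new batch (adjusted p = 6.84e-06). Of 22 sorting genes, 1 was higher and 2 lower in starved surface fish (4.55% and 9.09%): the sorting receptors SORL1 and sort1a fell by 0.53 (SE 0.11, edgeR adjusted p = 0.00688) and by 1 (SE 0.217, adjusted p = 0.0104) on the log2 scale, and the adaptor gga1 was higher by 0.37 ± 0.10 (adjusted p = 0.0274). In Pachón controls 1 of the 22 was called, rab7b, which was lower by 0.20 on the log2 scale (adjusted p = 0.0196). Of 22 genes of the TFEB family and the nutrient-sensing complexes on the lysosome, none was called in starved surface fish, while 3 were higher and 4 lower in Pachón controls (13.6% and 18.2%). Between the batches of surface controls 4 of these 22 were lower in the old one (18.2%, against 4.36% of all genes) and none was higher (against 3%). The row tfe3a, a transcription factor of lysosomal genes in mammals, had 2.00 to 10.5 CPM in Pachón and 0.43 to 3.22 CPM in surface fish over both treatments. In control fish its log2 difference was 1.68 ± 0.36 (edgeR adjusted p = 0.00132). Its difference in the controls was 2.80 in the old batch (adjusted p = 0.000144) and 0.56 in the new batch (adjusted p = 0.531), and old surface controls were lower than new ones (-2.23 ± 0.53, adjusted p = 0.0147). The kinase gene mtor was lower by 0.31 on the log2 scale (adjusted p = 0.00286). Of 3 protease inhibitor rows, the cystatin cst3 was lower in Pachón controls (-1.13 ± 0.26, adjusted p = 0.00202), and of 5 rows of yolk precursors and receptors the row lrp8, which stands beside a second row LRP8, was higher (1.35 ± 0.49, adjusted p = 0.0416). By batch the control difference was -0.21 (old, adjusted p = 0.0683) and -0.41 (new, adjusted p = 0.0247) for mtor, -0.62 (old, adjusted p = 0.112) and -1.64 (new, adjusted p = 0.0122) for cst3, and -0.29 (old, adjusted p = 0.00614) and -0.12 (new, adjusted p = 0.492) for rab7b, while lrp8 passed in neither batch alone. The counts of these lists were not tested against the shares of all genes. None of the inhibitor or yolk rows was called in starved surface fish, and no gene of the 6 lists was called in Pachón starvation or in the test of the response between the morphs.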

How the data were processed

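Ovary RNA was depleted of ribosomal RNA and made into directional libraries, per the labels' protocols. The authors deposited whole-number read counts per gene for each library, which are the values used here. A deposited CPM table is the same counts scaled per library and was not used. STAR 2.7.10b and RSEM are named in the submitters' processing notes, without roles. Build, annotation and strand setting were not given in the sources used here. Overlapping and antisense genes, and rows with a shared symbol, are therefore uncertain. Rows that name no gene were left out of library sizes: reads without a feature were 15.9 to 18.6% and ambiguous ones 0.255 to 0.376% of the reads listed.

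Counts were tested with edgeR 4.0.16 (R 4.3.3; TMM scaling, filterByExpr with a count minimum of 10 and a total minimum of 15, means of 8 groups over all 22 libraries, robust quasi-likelihood F-test, batches weighted equally). Standard errors are the log2 change over the root of F. P-values were adjusted over 15607 genes by the Benjamini-Hochberg method, and calls are at 0.05. The scripts were tested on simulated data. Rows under a mean of 3 CPM are given as counts with exact intervals, which cover counting error only. A count of 0 in a single library allows up to 3 counts in that library, a floor that no ratio given here uses.

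Alternatives were RLE scaling, no filter, DESeq2 1.42.0, only the groups compared, a replicate block, and leaving out each library in turn. The members and lists were chosen with earlier results of these data known. Values for every library, or lowest, median and highest, are printed for rows called in starved surface fish; in the other comparisons up to 5 called rows per direction with the smallest p are described, or 3 where none was called, and up to 4 genes per pathway list. Other members may be named, and those described for an uneven spread (atp6v0a1b and the low ctsla libraries) were chosen after their values were seen. One member enters the counts, the sums and the plot of both morph differences, but its own values are not reported here.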

Additional observations from a re-analysis of the deposited data

Results flagged for a closer look

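In the groups of 4 libraries, 51 sets of values were looked at (17 rows in 3 groups) for a highest or lowest library far from the other 3, and 4 stood out. Chance alone flags about 1 group in 20. GUSB had 91.79 CPM in Pachón old control replicate 4, against 82.73 CPM in the next library and 81.04 CPM in the lowest. The same library held the only read of ctsl.1 ENSAMXG00000010192 in its group, 1 count (0.1862 CPM) against 0 in the others. With the others at 0 any read there is flagged, so nothing is read from this flag. LAMP1 had 63.73 CPM in surface old control replicate 3, against 49.55 CPM in the next and 47.44 CPM in the lowest. Row hexb had 107.1 CPM in surface old control replicate 4, against 97.67 and 95.78 CPM. None of these libraries decides the morph calls of GUSB and LAMP1 over both batches or the call of hexb between the surface batches. Those calls held when it was left out. Calls within a single batch, such as those of hexb between the morphs in the new batch, were not refitted without single libraries.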

How the results depend on the processing

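The 49 calls of single rows gave 1323 values under the 27 other settings: 1139 kept the call, 180 lost it, 4 could not be tested there, and none of the 49 calls reversed in any of them. In all, 22 of the 49 calls were tested and held in every setting. The surface starvation count of 2 became 1 without a filter on low counts and with DESeq2, 0 in the fit to only the groups compared and 0 with the replicate block, and ran from 0 to 18 when 1 library was left out. The count in Pachón starvation was 0 throughout, and that of the response test ran from 0 to 1 without single libraries. The morph counts of 22 each ran from 14 to 29 (control) and 14 to 26 (starved) without single libraries, the lows being without Pachón new control replicate 1 and Pachón new starved replicate 2. With the replicate block they were 18 and 19. The surface batch count of 3 became 0 with the replicate block and ran from 0 to 5 without single libraries. The share of all genes is not set beside these counts, so their movement is not read as particular to the lysosomal rows. The causes were not tested. The fit to only the groups compared was not possible for the response test, which needs all groups.

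Replicate numbers gave no sign of pairing: correlations of deviations between same-numbered libraries ran from -0.19 to 0.113 over 10 pairs. In the new batch, with groups of 2, both pairs of a morph have the same value by construction (-0.19 in surface fish and -0.048 in Pachón). The 10 values are therefore not separate, and with such small groups they cannot show that the libraries are unpaired. Groups of 2 limit every comparison of the new batch; a group left with 1 library was assumed to vary like the others. Depths of 4860620 to 7513790 gene counts leave the sparse ctsl.1 rows at a few counts.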
